A study of Mus musculus with 10 samples.

Results

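Cytosolic ribosomal protein genes encode the proteins that, with the ribosomal RNAs, build the large and small subunits of the cytoplasmic ribosome. The members were the rows of the deposited gene table whose symbol begins with Rpl or Rps and a number, together with Rpsa, Rplp0, Rplp1, Rplp2 and Rpl13a. Pseudogene rows, S6 kinase genes and mitochondrial ribosomal protein genes were left out. This rule, which uses names and no measured value, gave 84 members of 17363 named genes. They comprised 43 large subunit genes, 31 small subunit genes, 3 genes of the ribosomal stalk, and 7 paralogs or copies. Of the last, Rpl32l is annotated as a processed pseudogene and Rps4l as a transcribed processed pseudogene, so they are copies by sequence and not known subunits.

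RNA was sequenced from CD4+CD25- T cells sorted from mammary tumours of C57BL/6 mice that carried the PyMT oncogene and were 23 weeks old. All mice had the floxed Tgfbr2 alleles (Tgfbr2fl/fl), which encode the type II receptor for TGF-β. WT mice carried no Cre, KO mice carried ThPOKCre, a Cre transgene active in the CD4 lineage, Il4-/- mice lacked the cytokine gene Il4 and carried no Cre, and Il4-/-KO mice had both changes. Each genotype had 2 replicates, and each KO replicate had a first and a repeat library made from the same RNA, which gave 10 libraries. Nothing in the labels states that a genotype's 2 replicates are different mice. The p-values therefore reflect how far these particular samples scatter, and some of that scatter may be technical.

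Ribosomal protein mRNAs are among the most abundant and most evenly expressed mRNAs of a cell, since the subunits need their proteins in equal numbers. Many of them begin with a C followed by a run of pyrimidines, the terminal oligopyrimidine (TOP) tract, through which mTORC1 and the protein LARP1 control their translation. T cells raise ribosome production when they are activated, before they divide.

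The tract itself could be read at the RefSeq transcript starts of 63 members. A tract, counted here as a C at the start base followed by at least 4 bases that are C or T on the gene's strand, was found in 14 of these 63 members (22.2%). It was found in 3.01% of all 27025 genes with a start sequence and in 0 of 69 mitochondrial ribosomal protein genes. Where RefSeq gave several starts for a gene, a start with the tract was taken. A start annotated a few bases away from the true one hides the tract in this search, so the absence of a match says only that these letters are not at the annotated base. Members without a match include Rpl11 and Rpl19, whose values stayed close to those of the other members. Whether the tract goes with the members' values was not tested. The following 30-base windows, from 10 bases before the start onward (GRCm38.p6, shown 5′ to 3′ on the gene's strand, tract in capitals), show 6 members with the tract and then Rpl7l1 and Rps27l, paralogs without it whose values parted from the other members.
Rpl15, chr14:18270967-18270996, minus strand: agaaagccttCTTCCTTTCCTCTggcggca
Rpl35, chr2:39005112-39005141, minus strand: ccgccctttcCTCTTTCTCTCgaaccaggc
Rpl38, chr11:114668570-114668599, plus strand: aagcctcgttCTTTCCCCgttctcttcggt
Rps18, chr17:33955646-33955675, minus strand: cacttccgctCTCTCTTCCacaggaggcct
Rps6, chr4:86857348-86857377, minus strand: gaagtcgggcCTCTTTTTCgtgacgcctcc
Rplp2, chr7:141447641-141447670, plus strand: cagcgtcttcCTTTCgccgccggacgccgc
Rpl7l1, chr17:46782637-46782666, minus strand: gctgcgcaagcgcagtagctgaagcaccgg
Rps27l, chr9:66946076-66946105, plus strand: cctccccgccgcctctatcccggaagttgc

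The libraries held 17121030 to 33802781 reads in genes. Summed over 9 core T cell markers, normalized counts (reads divided by 1 size factor per library) ran from 96490 in Il4-/- replicate 2 to 219770 in the first library of KO replicate 1. Markers of other cells were present too. The 13 markers of mammary and tumour epithelium were all above 0 in every library and summed to 258620 in WT replicate 1, to 32404 in WT replicate 2, and to between 16243 and 179060 in the others. The 11 macrophage and monocyte markers summed to 110530 in Il4-/- replicate 2 and to between 9349 and 20651 in the others, and the macrophage marker Mrc1 was at 0 in 7 of the 10 libraries. Tgfbr2 itself stood at 7876 and 7894 normalized counts in WT, at 5828 to 9442 in the KO libraries, 13816 and 12544 in Il4-/-, and 7762 and 8205 in Il4-/-KO. A gene-level count takes in exons outside the floxed part, so it does not check the deletion. Il4 read 107 and 276 in WT, 236 to 523 in the KO libraries, 97.2 and 75.4 in Il4-/-, and 98.7 and 39.7 in Il4-/-KO, where reads outside the deleted part would also be counted. In such bulk samples, fewer cells of a type and less RNA per cell cannot be told apart.

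The members together took a small share of the reads, and WT replicate 2 stood apart from the other 9 libraries. The share was 1.92% in WT replicate 1 and 0.615% in WT replicate 2. In KO it was 1.69% and 2.05% in the first and repeat library of replicate 1, and 2.07% and 2.17% in those of replicate 2. Il4-/- gave 2.11% and 1.19%, and Il4-/-KO 1.62% and 1.89%. WT replicate 2 was the lowest and Il4-/- replicate 2 the next lowest, while the other 8 libraries lay between 1.62% and 2.17%.

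By genotype, the share was highest in KO and lowest in WT, but the ranges of neighbouring genotypes overlapped. The mean was 1.99% ± 0.176 (SD, n = 2) in KO, 1.75% ± 0.188 (SD, n = 2) in Il4-/-KO, 1.65% ± 0.649 (SD, n = 2) in Il4-/- and 1.27% ± 0.923 (SD, n = 2) in WT. In each of the 4 comparisons of genotypes, the 2 replicates of one genotype overlapped the 2 of the other. The amplification used no molecular identifiers, so these values are shares of reads and not of molecules.

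**Figure D1:**
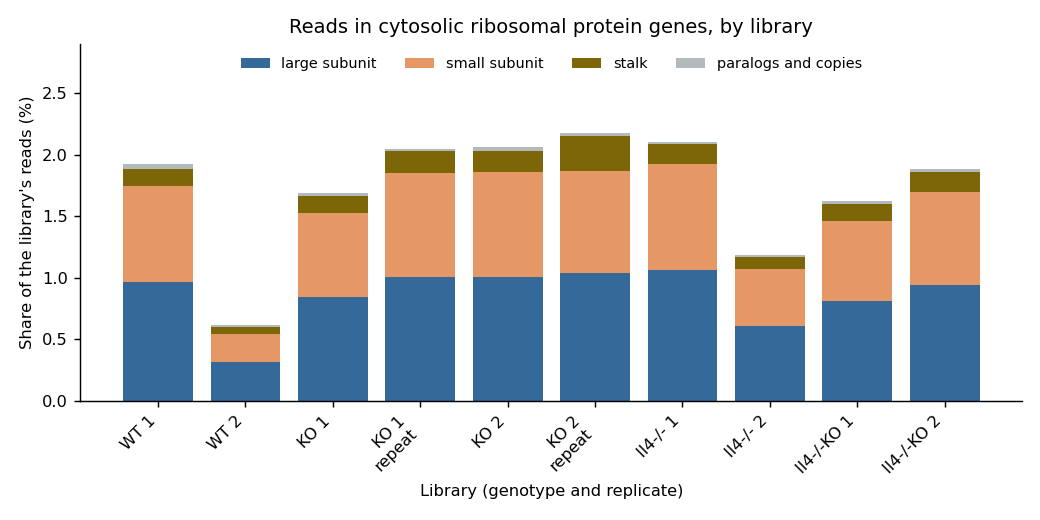
Share of each library's reads (vertical axis, percent) in the 84 ribosomal protein genes, stacked by role, for the 10 libraries on the horizontal axis. WT replicate 2 stands at 0.615% and Il4-/- replicate 2 at 1.19%, and the other 8 libraries between 1.62% and 2.17%.

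Both subunits were low in the same libraries. Large subunit genes took 0.314% of the reads in WT replicate 2 and 0.964% in WT replicate 1, and small subunit genes 0.228% and 0.779%. The ratio of large to small subunit reads was 1.38 in WT replicate 2, 1.31 in Il4-/- replicate 2 and between 1.17 and 1.25 in the other 8 libraries. The ratio was thus highest in the 2 libraries with the lowest shares, a difference that has no replicate.

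The members differed widely in level, as compared per kilobase of transcript, over the 8 replicates. Among the highest were Rpl32 with 18483 normalized counts per kilobase, Rpl4 with 18261, the stalk scaffold Rplp0 with 18106, and Rps14 with 17581. Among members that passed the filter on low values (10 or more normalized counts in 2 or more replicates), the lowest with a known length were Rpl5 with 786 and Rpl39 with 844. Rpl5 joins the large subunit together with the 5S ribosomal RNA, and its annotated transcript of 2045 bases is long for a member, which lowers its level per kilobase. The filter passed 81 of the 84 members.

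Rpl26, Rpl3l and Rpl39l did not pass it. Rpl26, a large subunit protein gene on mouse chromosome 11, was listed at 0 in 8 of 10 libraries and at most at 2.84 normalized counts, the worth of 3 reads in that library. Rpl3l, a paralog of Rpl3 known from heart and skeletal muscle, was at 0 in 8 libraries and reached 26.0 normalized counts in Il4-/-KO replicate 2. Rpl39l, known from the testis, lay between 0 and 7.92. For Rpl26, 71.3% of the 50-base windows of its transcript also occur in annotated pseudogenes, and how reads with several matches were counted was not given in the sources used here.

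Such shared sequence was the rule among the members. Of the 77 subunit and stalk genes, 76 shared at least 1 window of 50 bases with an annotated pseudogene, with a median of 53.6% of windows and a highest value of 88.1% in Rpl10a. Across these 77 genes the share of windows and the level per kilobase had a Spearman correlation of -0.12, a description over genes of the same libraries. Rpl10a, with 88.1% shared, stood at 2425 normalized counts per kilobase and Rpl26, with 71.3%, near 0. How far shared sequence alters the fold changes of single members was not tested, and these stay uncertain on that account.

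The stalk genes, whose proteins recruit translation factors to the ribosome, were low in WT replicate 2 like the other members and stood out in the repeat library of KO replicate 2. Rplp0 stood at 21737 normalized counts in WT replicate 1 and at 11268 in WT replicate 2. Its first and repeat libraries gave 27238 and 33902 in KO replicate 1, and 27987 and 54680 in KO replicate 2. It read 26344 and 16274 in Il4-/- and 22079 and 27097 in Il4-/-KO. Both KO replicates, taken as the mean of their 2 libraries, were therefore above both WT replicates and above both Il4-/-KO replicates. Rplp2 spanned a wider range, from 697 in WT replicate 2 to 7824 in the repeat library of KO replicate 2. Rplp1 did the same, from 1403 to 12026 in the same 2 libraries.

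A common shift within each library was the main feature of the members. Each gene's deviation was taken from its own mean over the 8 replicates on the log2(normalized count + 1) scale, and the median was taken over the 76 subunit and stalk genes that passed the filter. The median deviation was -1.37 in WT replicate 2 and 0.37 in WT replicate 1. It was -0.50 in Il4-/- replicate 2 and 0.45 in Il4-/- replicate 1. The 4 KO libraries lay between 0.23 and 0.52, and the Il4-/-KO replicates at 0.11 and 0.19. The replicates of WT and of Il4-/- thus differed more from each other than did those of KO or Il4-/-KO.

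The shift reached nearly every member. In WT replicate 2, 75 of 76 subunit and stalk genes were lower than in WT replicate 1, with a median ratio of 3.33-fold, and the exception was Rpl29. In Il4-/- replicate 2, 76 of 76 were lower than in Il4-/- replicate 1, with a median ratio of 1.92-fold. The steepest of these differences was that of Rpl39, whose log2 difference, WT replicate 2 less replicate 1, was -2.86. Over all genes tested the median difference between the WT replicates was -0.02 on that scale, and 17.7% of genes lay below the members' median.

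Mitochondrial ribosomal protein genes, which serve the separate ribosome of mitochondria, were shifted less than the cytosolic ones. Between replicates 2 and 1 the median log2 difference was -0.62 in WT and -0.43 in Il4-/-, against -1.73 and -0.94 for the cytosolic genes. As deviations from the mean of the 8 replicates, the mitochondrial median over 77 genes was -0.26 in WT replicate 2 against -1.37, and -0.49 in Il4-/- replicate 2 against -0.50, where Il4-/- replicate 1 was low as well, at -0.12 against 0.45. Other short genes, 1296 with transcripts under 1000 bases, had medians of -0.27 and -0.25 in these libraries. The 21 other genes fixed as carriers of TOP mRNAs had medians of -0.82 and -0.32. In WT replicate 2, then, the TOP mRNAs lay between the ribosomal protein genes and the short genes.

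Epithelial and T cell marker sums also differed between these replicates, each in opposite directions in WT and in Il4-/-. The epithelial sum was 258620 in WT replicate 1, the WT replicate with the higher member share, and 32404 in WT replicate 2. In Il4-/- it was 48875 in replicate 1, again the replicate with the higher member share, and 152310 in replicate 2. The macrophage sum was 20651 and 17756 in WT replicates 1 and 2, and 13112 and 110530 in those of Il4-/-. Cd14 alone read 16221 and 2396 in WT replicates 1 and 2. The mean log2(normalized count + 1) of the macrophage markers was higher in replicate 2 of both genotypes. It went from 7.88 to 9.09 in WT and from 8.54 to 12.12 in Il4-/-. T cell markers summed to 105520 and 149850 in WT, and to 168510 and 96490 in Il4-/-. Fibroblast and endothelial sums were lower in replicate 2 of both genotypes. In Il4-/-, the fibroblast gene Dcn alone read 847 and 13.5. By mean log2(normalized count + 1), however, both lists were lower in WT replicate 2 but higher in Il4-/- replicate 2. Fibroblast markers went from 3.88 to 1.03 in WT and from 2.94 to 4.18 in Il4-/-. Endothelial markers went from 5.79 to 5.11 in WT and from 5.87 to 7.48 in Il4-/-. The part of these cells in the members' levels was not tested by a separation of cells. With the epithelial marker level as a covariate in the fit, the members' median log2 fold change of KO against WT was 0.79, against 0.92 without it.

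**Figure D2:**
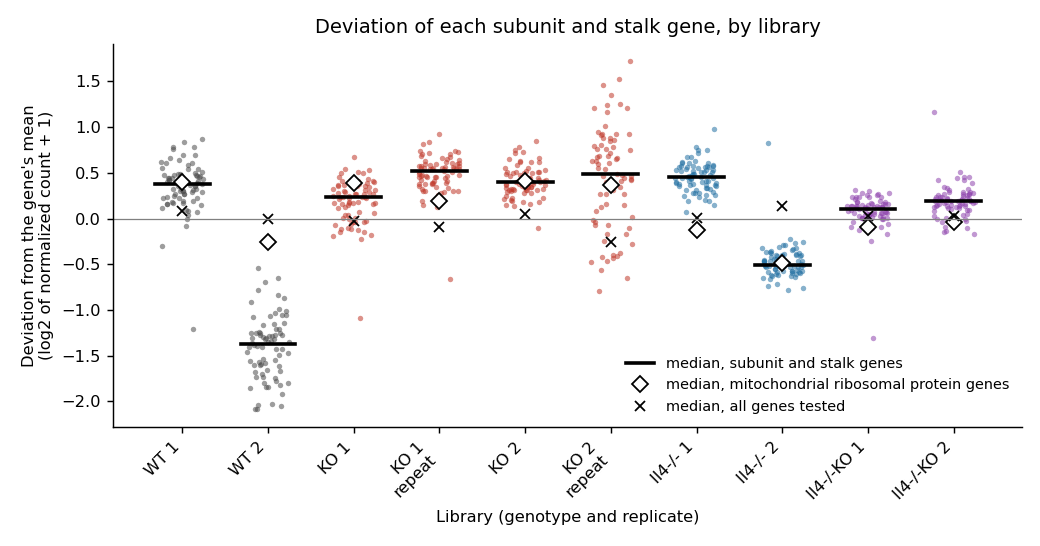
Deviation of each of the 76 tested subunit and stalk genes from its own mean (vertical axis, log2 scale) in each library (horizontal axis), with 1 point per gene, a bar at their median, a diamond at the median of 77 mitochondrial ribosomal protein genes and a cross at the median of all genes tested. The points of WT replicate 2 lie around -1.37 and those of Il4-/- replicate 2 around -0.50.

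Deletion of Tgfbr2 was first compared in mice with intact Il4, KO against WT. Of the 81 tested members, 80 had a higher mean in KO and 1, Rpl7l1, a lower one. The median log2 fold change was 0.92 for the members and -0.07 for all 14473 genes tested. No member passed the test (limma, Benjamini-Hochberg over all genes), where 0.00691% of all genes did, a single gene. The smallest adjusted p of a member by limma was 0.353, that of Rpsa.

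Marker genes moved in this comparison as well, in both directions. Higher in KO were 9 of 13 epithelial markers (median log2 fold change 0.30) and 7 of 11 macrophage and monocyte markers (0.28). NK cell and endothelial markers were higher for 2 of 2 each (2.39 and 2.02). CD8 T cell markers were lower for 2 of 2 (-1.50), and B cell markers for 3 of 4 (-0.41). The 9 core T cell markers in the table were all higher in KO (median log2 fold change 0.83) and summed to between 191400 and 219770 in the KO libraries, against 105520 and 149850 in WT. The 5 neutrophil markers tested were all higher too, with a median of 3.20. Summed, all 6 neutrophil markers stood at 5457 and 6255 for KO replicate 1 (first and repeat library) and at 826 and 357 for KO replicate 2, against 515 and 135 in WT. The granulocyte receptor gene Csf3r was at 0 in WT replicate 1 and in the repeat library of KO replicate 2, and the neutrophil chemokine receptor gene Cxcr2 in both libraries of KO replicate 2. Over all marker lists, DESeq2 called Cd4, the neutrophil gene Retnlg and the macrophage gene Mrc1, where it called 3.64% of all genes. Mrc1 was at 0 in every WT and KO library except the repeat library of KO replicate 2. In limma no marker was called. The part of these cells in the members' values was not tested.

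Rpsa encodes a small subunit protein that is also known as a laminin receptor. The WT replicates stood at 7548 and 2680 normalized counts. KO replicate 1 gave 11272 in its first library and 17738 in its repeat, and KO replicate 2 gave 10548 and 18741. Every KO library was above both WT libraries. The log2 fold change was 1.70 ± 0.52 (SE), with 2 replicates in each genotype. Rpl8, a large subunit gene, had 1.59 ± 0.59 (adjusted p = 0.384, limma), and Rplp0 had 1.18 ± 0.45 (adjusted p = 0.385, limma). Rpl7l1, the nuclear paralog of Rpl7 that acts in subunit assembly, had -0.08 ± 0.27.

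Counts at weaker thresholds gave no more than the background in one case and more than it in another. At an unadjusted p under 0.05 in limma, 6 members were higher and 0 lower, 7.41% of the 81, where 12.1% of all genes passed. These were Rpsa, Rpl8, Rplp0, Rps2, Rps3 and Rps9. Both KO replicates lay above both WT replicates for 29 of 81 members, 35.8%, against 17.5% of all genes. For 0 members did both lie below, against 20.1% of all genes. As the members shifted together within a library, these counts are not independent observations.

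The comparison turned on WT replicate 2. Without it, the members' median was 0.01, with 43 of 81 members higher. Without WT replicate 1 it was 1.81, with 81 of 81 higher. In count models on the whole reads recovered from the table, edgeR called 0 of 81 members (0% of all genes) and DESeq2 called 0 (3.64% of all genes).

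Deletion of Tgfbr2 was next compared in mice without Il4, Il4-/-KO against Il4-/-. Here 71 of 81 members were higher and 10 lower, and the median log2 fold change was 0.16, against -0.03 for all genes. No member passed in limma (0% of all genes), and 0 did so at an unadjusted p under 0.05 (3.25% of all genes). edgeR called 0 members (0% of all genes) and DESeq2 0 (0.352% of all genes). The replicates did not overlap for 2 members that were higher, Rpl7l1 and Rps27l (16.8% of all genes), and for 0 that were lower (16.2% of all genes). Cell type markers moved as well. Lower in Il4-/-KO were 11 of 11 macrophage and monocyte markers (median log2 fold change -1.43) and 11 of 13 epithelial markers (-0.51). Higher were 9 of 9 core T cell (0.41), 2 of 2 CD8 T cell (2.68) and 4 of 5 neutrophil markers (0.60). The other cell types were split. DESeq2 called Cd8a and Cdh1 (0.352% of all genes), limma 0. How these bear on the members was not tested.

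The members with the smallest p in each direction had small differences or wide errors. Rpl7l1 had a log2 fold change of 0.37 ± 0.27 and Rpsa of 0.37 ± 0.52. Rps7 had -0.13 ± 0.56 and Rpl15 -0.04 ± 0.51. Rpl29, at -0.98 ± 0.90, split the 2 Il4-/-KO replicates and is described further on. The pooled direction rested on Il4-/- replicate 2, since without it the median was -0.31 with 5 of 81 members higher, and without Il4-/- replicate 1 it was 0.62.

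Loss of Il4 was compared in Tgfbr2-deleted cells, Il4-/-KO against KO. In this comparison 74 of 81 members were lower and 7 higher, with a median log2 fold change of -0.29, against -0.07 for all genes. No member passed in limma (0% of all genes), and 0 passed at an unadjusted p under 0.05 (11.7% of all genes). The smallest adjusted p was 0.673. edgeR called 0 members (0% of all genes) and DESeq2 0 (2.67% of all genes).

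Both Il4-/-KO replicates lay below both KO replicates for 48 of 81 members, 59.3%, against 23.3% of all genes, and above for 0, against 22.8%. As the members shifted together within a library, these counts are not independent observations. Of the 77 mitochondrial ribosomal protein genes, 45 lay below in the same way and 4 above. The first library of KO replicate 1 alone had a member share of 1.69%, between the Il4-/-KO replicates at 1.62% and 1.89%. Rpl34 read 1828 and 1670 normalized counts in Il4-/-KO and 2071, 2882, 2244 and 2944 in the 4 KO libraries. Every KO library was above both Il4-/-KO replicates, by a log2 fold change of -0.54 ± 0.43 from KO to Il4-/-KO. Rplp0 had -0.54 ± 0.45. Of those that were higher, Rpl4 had 0.09 ± 0.43 and Rpl23 0.10 ± 0.53.

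The size of this difference varied with the libraries and with the fit. It was -0.18 with only the first KO libraries, -0.37 with only the repeat libraries, and -0.09 after removal of a trend on transcript length. With the epithelial marker level as a covariate it turned to 0.18, with 61 of 81 members higher. The epithelial marker sum was 103680 to 179060 in the KO libraries and 16243 and 72589 in Il4-/-KO, with 13 of 13 markers lower.

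Other marker lists were mixed. In Il4-/-KO, 6 of 11 macrophage and monocyte markers were higher (median log2 fold change 0.23), as were 3 of 4 B cell markers (median 1.67). Fibroblast and stroma markers were split, with 2 higher and 2 lower. Core T cell, neutrophil and dissociation stress genes were mostly lower. Of the 9 core T cell markers, 7 were lower in Il4-/-KO (median log2 fold change -0.34), and their sums were 166960 and 172560 against 191400 to 219770 in KO. All 5 neutrophil markers tested were lower, with a median of -4.02, and the 6 together summed to 164 and 420 in Il4-/-KO. Of the 9 dissociation stress genes, 6 were lower, with a median of -1.39. Over all marker lists DESeq2 called Krt19, Retnlg, Fosb and Junb, each as lower, where it called 2.67% of all genes. The part of these lists in the members' values was not tested.

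Loss of Il4 was also compared in cells with intact Tgfbr2, Il4-/- against WT, which shares its WT samples with the first comparison. Here 77 of 81 members were higher and 4 lower, with a median log2 fold change of 0.52, against 0.01 for all genes. No member passed in limma (0% of all genes) or at an unadjusted p under 0.05 (4.08% of all genes). edgeR called 0 members (0% of all genes) and DESeq2 0 (0.2% of all genes). The replicates did not overlap for 3 members that were higher, Rpl29, Rpl32l and Rps4l (14.7% of all genes), and for 1 that was lower, Rpl7l1 (14.6% of all genes). Among markers, 10 of 11 macrophage and monocyte (median log2 fold change 2.02) and 3 of 4 B cell ones (0.51) were higher. So were 2 of 2 NK cell (1.39) and 2 of 2 endothelial markers (1.22). Lower were 2 of 2 CD8 T cell (-4.55), 10 of 13 epithelial (-0.54) and 4 of 5 neutrophil markers (-1.10). Core T cell and fibroblast markers were split. How these bear on the members was not tested. DESeq2 called Cd8a and Mrc1 (0.2% of all genes), limma 0. Mrc1 was at 0 in Il4-/- replicate 1.

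Rpl29 had a log2 fold change of 1.97 ± 0.90, Rpsa 1.07 ± 0.52 and Rpl8 0.87 ± 0.59. Rpl7l1 had -0.56 ± 0.27, Rps27l -0.51 ± 0.61 and Rpl35 -0.32 ± 0.55, all with an adjusted p of 1 in limma. Without WT replicate 2 the members' median was -0.37, with 5 of 81 higher, and without WT replicate 1 it was 1.37. Without Il4-/- replicate 1 it was 0.06.

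Whether the effect of Tgfbr2 deletion differed between the Il4 backgrounds was tested as the interaction, the log2 fold change in Il4-/- mice less that in mice with intact Il4. It was negative for 79 of 81 members, with a median of -0.76, against 0.00 for all genes. No member passed in limma (0% of all genes), and 0 passed at an unadjusted p under 0.05 (3.52% of all genes). edgeR called 0 members (0% of all genes) and DESeq2 0 (0.242% of all genes). Rpl8 had -1.52 ± 0.83, Rpsa -1.33 ± 0.74 and Rpl29 -2.27 ± 1.27, and the positive ones were Rpl7l1 with 0.45 ± 0.39 and Rps27l with 0.02 ± 0.86. Without WT replicate 2 the median was 0.17, with 59 of 81 members above 0, and without WT replicate 1 it was -1.63.

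**Figure D3:**
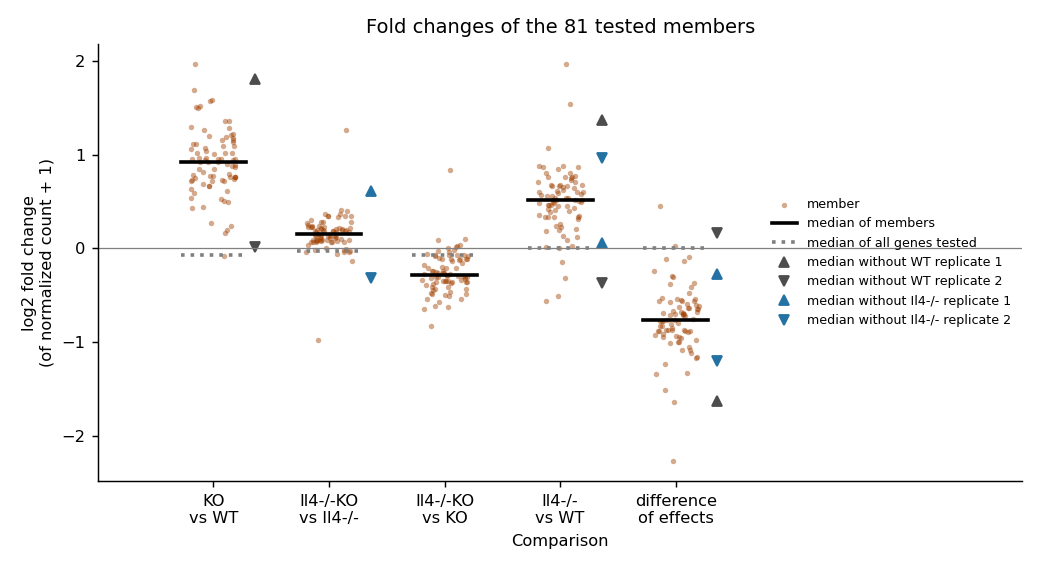
Log2 fold change (vertical axis) of each of the 81 tested members in the 4 comparisons and in the difference of the Tgfbr2 effects between Il4 backgrounds (horizontal axis), with a solid bar at the members' median and a dotted bar at the median of all genes. Triangles give the members' median when 1 WT or Il4-/- replicate is left out. For KO against WT it runs from 0.01 without WT replicate 2 to 1.81 without WT replicate 1.

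By role, large and small subunit genes gave almost the same values, and the paralogs and copies had a median nearer to 0. For KO against WT the median log2 fold change was 0.92 over 42 large subunit genes, 0.90 over 31 small subunit genes, 1.36 over the 3 stalk genes and 0.23 over the 5 tested paralogs and copies. The paralogs and copies went from -0.08 for Rpl7l1 to 1.97 for Rps4l. For Il4-/-KO against KO the medians were -0.28, -0.29, -0.29 and -0.11. Large and small subunit medians were thus nearly equal in both comparisons. Of the ribosomal proteins whose names fall outside the rule, 3 passed the filter. Rack1, a scaffold of the small subunit, had 0.88 ± 0.36 for KO against WT, and Fau, which encodes a small subunit protein fused to a ubiquitin-like one, had 1.18 ± 0.60.

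A few members did not follow the library shift. Rpl29, a large subunit gene at chr9:106429454-106431568 on the plus strand, had normalized counts of 339 and 416 in the WT replicates. KO replicate 1 gave 368 and 497 in its first and repeat library, and KO replicate 2 gave 1345 and 2583. It read 1552 and 1389 in Il4-/-, and 316 and 1753 in Il4-/-KO. By normalized count, Rpl29 was thus low in both WT replicates, KO replicate 1 and Il4-/-KO replicate 1. It was high in the other 4 replicates, with none between 497 and 1345. With each library's median deviation subtracted, however, WT replicate 2 stood at 0.46, beside 0.38 in the first library of KO replicate 2. WT replicate 1 stood at -1.58, so relative to the other members the split also went across WT. The 2 libraries of each KO replicate, made from the same RNA, fell on the same side. The split went across KO and across Il4-/-KO, so genotype did not separate it. Its transcript shares 75.7% of 50-base windows with 81 annotated pseudogenes, and the part of these copies in its counts was not tested.

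Rps27l, the paralog of Rps27 that is known as a target of p53, lies at chr9:66946086-66949516. It read 3854 and 900 in WT, 2032 and 1482 in KO replicate 1, 2856 and 2086 in KO replicate 2, 1223 and 1398 in Il4-/-, and 1447 and 1530 in Il4-/-KO. Taken as the mean of their 2 libraries, both KO replicates were above all 4 replicates without Il4. The repeat library of KO replicate 1 alone, at 1482, was below both Il4-/-KO replicates only in part, since it lay between 1447 and 1530. The WT replicates lay on both sides of the KO replicates. Of the reads of Rps27l and Rps27 together, Rps27l took 45.3% and 51.4% in WT, 27.1% to 42.1% in the KO libraries, 18.9% and 40.1% in Il4-/-, and 28.3% and 30.3% in Il4-/-KO.

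Rpl7l1, at chr17:46773907-46782672 on the minus strand, differed little between the WT replicates, unlike its parent. It read 4184 and 3330 in WT, 3968 and 2681 in KO replicate 1, 3915 and 3570 in KO replicate 2, 2263 and 2825 in Il4-/-, and 3243 and 3290 in Il4-/-KO. Both Il4-/- replicates were below both replicates of each other genotype, taking KO replicates as means. Its parent Rpl7 read 10113 and 3055 in WT, so that Rpl7l1 took 29.3% of the reads of both genes in WT replicate 1 and 52.2% in WT replicate 2.

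Rpl22l1, the paralog of Rpl22 that is known to take its place in the ribosome when Rpl22 is lost, read 885 in the first library of KO replicate 2 and 179 in the repeat library. In the other 8 libraries it read 314 to 1128. Its share of the reads of both genes was 11.6% in that repeat library and 28.2% to 40.8% in the other 9. Rps4l, the transcribed copy of Rps4x, read 6.60 to 194 normalized counts, at most 3.47% of the reads of both genes. Rpl32l stood between 2.64 and 24.6 normalized counts.

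**Figure D4:**
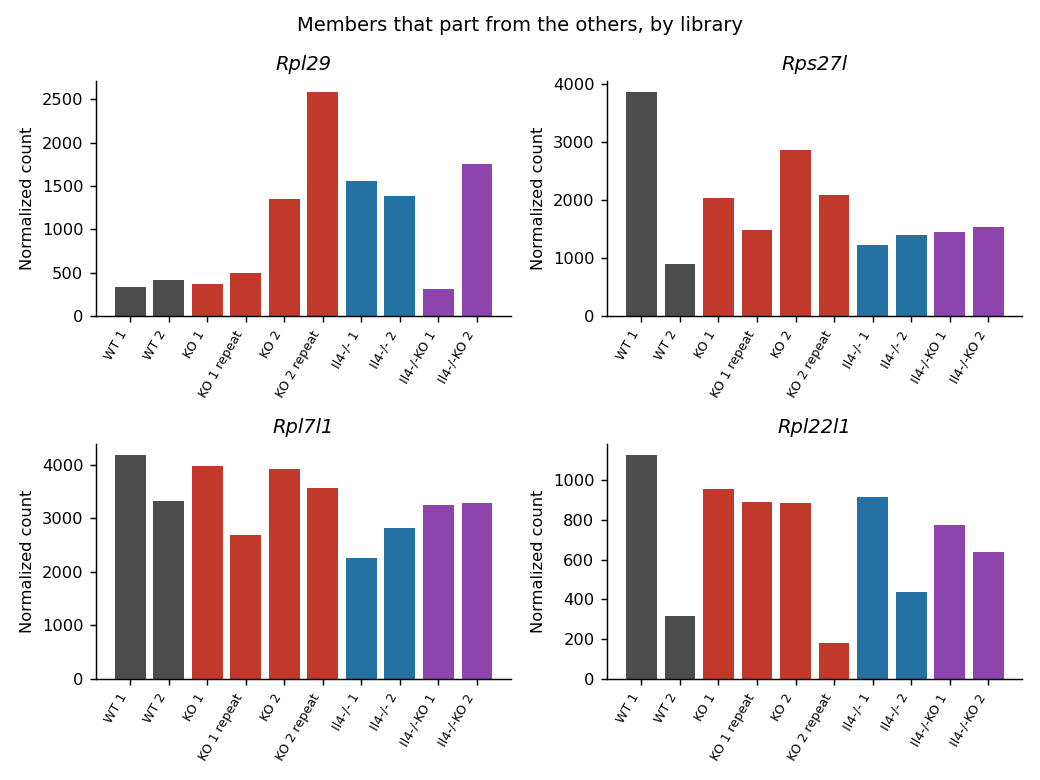
Normalized counts (vertical axes) of Rpl29, Rps27l, Rpl7l1 and Rpl22l1 in the 10 libraries (horizontal axes), with 1 bar per library coloured by genotype. Rpl29 splits into libraries at or below 497 and at or above 1345, and Rpl22l1 falls to 179 in the repeat library of KO replicate 2.

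The 2 libraries of KO replicate 2 differed, for the members, in how far they followed base composition. In the repeat library, a member's deviation rose with the GC content of its transcript, with a Spearman correlation of 0.71 over 76 subunit and stalk genes. In the first library of the same RNA it was 0.04 over the 76 genes. Over 13533 genes the correlations were closer, 0.53 in the repeat library and 0.44 in the first, so that over all genes both libraries followed GC content. The difference between both libraries ran from -1.17 for Rps4x to 1.19 for Rpl8 on the log2 scale, with an SD over members of 0.57, against 0.20 between the libraries of KO replicate 1. In the libraries of the other replicates, the members' correlation with GC content ran from -0.34 in Il4-/- replicate 1 to 0.31 in Il4-/-KO replicate 2. With transcript length, over all libraries, it ran from -0.41 in WT replicate 1 to 0.53 in the first library of KO replicate 1. Each of these correlations is over genes of 1 library and describes it only. After removal of a GC trend, an alternative chosen after seeing the data, the median for KO against WT was 0.89 and that for Il4-/-KO against KO was -0.22.

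**Figure D5:**
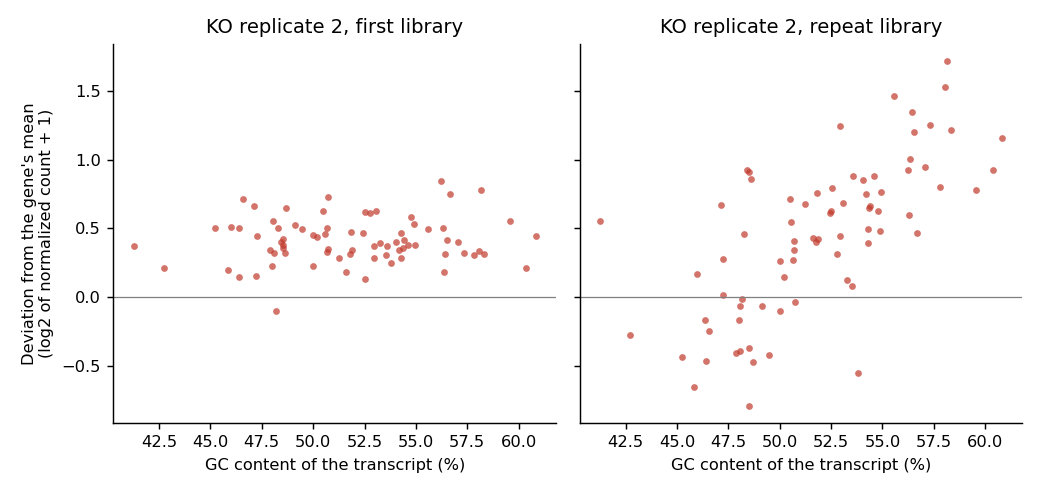
Deviation of the 76 tested subunit and stalk genes from their own means (vertical axes, log2 scale) against the GC content of the transcript (horizontal axes, percent) in the first and the repeat library of KO replicate 2. The Spearman correlation is 0.04 in the first library and 0.71 in the repeat library, against 0.44 and 0.53 over 13533 genes.

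The lists of genes around the ribosome, chosen with earlier results known, gave no call in limma. Of the 21 other TOP mRNAs, which encode translation factors and related proteins, 15 were higher and 6 lower in KO than in WT, with a median of 0.68. In limma 0 were called and 5 were higher at an unadjusted p under 0.05, edgeR called 0, and DESeq2 called 2, Eif3f and Eef2. Over all genes the shares in KO against WT were 12.1% at that unadjusted p and 3.64% by DESeq2. Eif3f, a subunit of an initiation factor, had 1.46 ± 0.36 (adjusted p = 0.345, limma), and Eef2, the translocation factor of elongation, had 1.46 ± 0.42 (adjusted p = 0.345, limma). Eef2 had normalized counts of 21487 and 15801 in WT, 41022 and 62846 in the KO replicates, 39164 and 30316 in Il4-/-, and 29677 and 40877 in Il4-/-KO. WT was the lowest genotype for it, and its 2 WT replicates differed far less than those of the ribosomal protein genes.

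Ribosome assembly genes, which act in the nucleolus and on the way to the cytoplasm, were mixed. Of 27, 15 were higher and 12 lower in KO than in WT, with a median of 0.11. In limma 0 were called and 5 were lower at an unadjusted p under 0.05 (12.1% of all genes), and edgeR and DESeq2 called 0 (0% and 3.64% of all genes). Gnl3, which encodes nucleostemin, had -1.74 ± 0.51, and Nmd3, the export adaptor of the large subunit, had -1.43 ± 0.47. In Il4-/-KO against KO, Ncl (nucleolin) had 1.97 ± 0.52 and Nop58 2.02 ± 0.56, with adjusted p values of 0.321 and 0.331 in limma. DESeq2 called Ncl and no other gene of the list in that comparison (2.67% of all genes), and edgeR called 0 (0% of all genes). Nop58 read 1133 and 2928 in WT, 1005 and 396 in the KO replicates, 2694 and 2118 in Il4-/-, and 2584 and 2536 in Il4-/-KO. Both KO replicates were below all the other replicates, whereas the mean share of the ribosomal protein genes was highest in KO.

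Of 13 genes of the RNA polymerase I machinery, which makes the ribosomal RNA, 5 were higher and 8 lower in KO than in WT. In limma 0 were called and 2 were lower at an unadjusted p under 0.05 (12.1% of all genes), edgeR called 0, and DESeq2 called 1, Taf1d (3.64% of all genes). Taf1d, a subunit of its selectivity factor, had -2.05 ± 0.48 (adjusted p = 0.339, limma). Of 13 genes of the S6 kinases and mTORC1 control, 8 were higher and 5 lower. In limma 0 were called, with 1 higher and 2 lower at an unadjusted p under 0.05 (12.1% of all genes), edgeR called 0, and DESeq2 called 2, Eif4ebp2 as higher and Larp4 as lower (3.64% of all genes). Eif4ebp2, a translational repressor that mTORC1 inactivates, read 266 and 120 in WT, 985 and 1473 in the KO replicates, 1991 and 1903 in Il4-/-, and 1930 and 2003 in Il4-/-KO. Its log2 fold change was 2.74 ± 0.44 for KO against WT (adjusted p = 0.250, limma) and 3.44 ± 0.44 for Il4-/- against WT (adjusted p = 0.358, limma). All 6 other replicates were above both WT replicates. Larp4, which binds mRNA poly(A) tails, had -1.85 ± 0.48 for KO against WT and 2.15 ± 0.48 for Il4-/-KO against KO.

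The 77 mitochondrial ribosomal protein genes were also mostly higher in KO than in WT and in Il4-/-KO. In KO against WT, 56 were higher and 21 lower, with a median of 0.23, against 0.92 for the members. In Il4-/-KO against KO, 69 were lower and 8 higher, with a median of -0.37, against -0.29 for the members. In Il4-/- against WT, 70 were lower and 7 higher, with a median of -0.36. The last has the opposite sign to that of the cytosolic genes, 0.52, which rested on WT replicate 2. In limma, edgeR and DESeq2, 0 of the 77 were called in these 3 comparisons, and at an unadjusted p under 0.05 in limma 0, 1 and 4 were lower, where 12.1%, 11.7% and 4.08% of all genes passed in either direction. Mrpl42 had -1.14 ± 0.33 for Il4-/- against WT, where the Il4-/- replicates stood at 1200 and 814 normalized counts and the WT replicates at 2131 and 2231.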

How the data were processed

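The study deposited 1 table of signal per gene and library for 10 libraries of sorted CD4+CD25- T cells. Per the submitters' processing notes, bcl2fastq 2.18.0, STAR and DESeq2 were used with the build mm10. How reads were counted (program, annotation, strand) is not given in the sources used here. Reads from overlapping genes cannot be separated. The deposited signal values are read counts divided by 1 size factor per library, since division by a single step gave whole numbers within 0.001 reads for 100% of values. RNA was amplified with SMART-Seq v4, per the labels' protocols, with no molecular identifiers.

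Rows without a gene name (7) took at most 0.0205% of reads and were left out. The main test was limma 3.58.1 on log2(normalized count + 1) with a mean-variance trend. It was two-sided and ran over the 14473 genes that reached 10 normalized counts in 2 or more of 8 replicates, with Benjamini-Hochberg adjustment and a threshold of 0.05. A KO replicate was the mean of its first and repeat library, and the spread was estimated over the 4 genotypes together. edgeR 4.0.16 and DESeq2 1.42.0 ran on the recovered reads. The scripts were tested on simulated data. Fold changes of low genes are understated by the added 1. Transcript length and GC content came from GENCODE vM21 for 82 members, with the shortest principal transcript, and start sequences from RefSeq (63 members matched by symbol).

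The members and gene lists were chosen with earlier results of these data known. Members named beside a comparison are the 3 with the smallest unadjusted p in each direction and at least 50 normalized counts in the higher group, since none was called. Others named are the highest and lowest by level, the stalk genes, the paralogs, and for each list at most 2 with the smallest p. Rps2, Rps3 and Rps9, and members named for replicates that did not overlap, were named after their values were seen. A few genes that this rule names are not reported here.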

Additional observations from a re-analysis of the deposited data

Results flagged for a closer look

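Rpl32l, the processed pseudogene, moved in opposite directions with loss of Il4 in the 2 Tgfbr2 settings, without overlap of replicates. With intact Tgfbr2 the WT replicates stood at 7.90 and 2.64 normalized counts and the Il4-/- replicates higher, at 8.91 and 9.02. With Tgfbr2 deleted, KO stood at 13.5 and 18.9 (means of 2 libraries) and Il4-/-KO lower, at 6.68 and 10.8. The difference between the 2 effects, tested as the interaction in limma, was -1.64 ± 1.86 (SE) on the log2 scale with an adjusted p of 0.99, so it did not pass. Each value rests on few reads.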

How the results depend on the processing

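Under 24 alternative fits, 0 members were called in every comparison, and the smallest adjusted p of a member was 0.0666. The replicate numbers did not pair the samples (correlations of deviations between same-numbered replicates of 2 genotypes ran from -0.36 to 0.24). The fit with the replicate block left the members' medians as they were (0.92 for KO against WT) and called 0 genes there. Other counts of genes called for KO against WT, 1 in the reported fit, were 0 with edgeR, 527 with DESeq2, 6 with the epithelial covariate, 2 without the variance trend, 2 with quantile normalization, 0 with only the genotypes compared, 0 with only the repeat KO libraries and 0 to 0 with 1 replicate left out. Counts for Il4-/-KO against Il4-/- were 51 with DESeq2 and 1 each with KO replicate 2 without its repeat library, the epithelial covariate and quantile normalization. DESeq2 also called 386 for Il4-/-KO against KO, 29 for Il4-/- against WT and 35 for the interaction.

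With 1 replicate left out, which assumes that the lone sample varies like the others, the members' median ran from 0.014 to 1.81 for KO against WT, from -0.33 to -0.23 for Il4-/-KO against KO and from -1.63 to 0.17 for the interaction. For Il4-/-KO against KO it was -0.19 with quantile normalization, -0.22 with the GC trend removed, -0.18 and -0.37 with only the first or repeat KO libraries, -0.092 with the length trend removed and 0.18 with the epithelial covariate. Using only the repeat KO libraries moved the median of all genes for KO against WT from -0.07 to -0.27.

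Of 639 values of named members under alternatives, 614 kept their direction and side of the threshold and 25 turned, 17 of these with a replicate left out. The leave-out ranges that crossed 0 were, for Rpl7l1 in KO against WT, -0.25 to 0.083, and in Il4-/-KO against Il4-/- for Rpsa -0.12 to 0.85, Rpl29 -2.21 to 0.26, Rps7 -0.59 to 0.33 and Rpl15 -0.41 to 0.33. In Il4-/-KO against KO they were -0.42 to 2.09 for Rps4l and -0.082 to 0.26 for Rpl4. In Il4-/- against WT they were -0.021 to 1.75 for Rpl8, -1.56 to 0.54 for Rps27l and -1.17 to 0.53 for Rpl35, and in the interaction -1.02 to 1.07 for Rps27l. Other turns were Rpl7l1 in KO against WT with only the first KO libraries (0.079), Rps7 (0.019) and Rpl15 (0.15) in Il4-/-KO against Il4-/- with the epithelial covariate, Rpl4 (-0.15) and Rpl23 (-0.34) in Il4-/-KO against KO with the GC trend removed, and Rps27l in the interaction with the GC trend removed (-0.52), without the repeat library of KO replicate 2 (-0.080) and with only the first KO libraries (-0.18). The cause was not tested. With 2 replicates per genotype, the median SE of a member's log2 fold change was 0.57.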

Other observations

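Stalk genes took 12.9% of the members' reads in the repeat library of KO replicate 2 and 7.10% to 8.91% in the other 9 libraries. The first library of the same RNA gave 8.20%.

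After the median deviation of each library was subtracted, the subunit and stalk members had a median SD over libraries of 0.22 on the log2 scale. The highest were Rps4l with 1.22, Rpl29 with 1.18, Rpl22l1 with 0.80, Rpl7l1 with 0.65 and Rps27l with 0.54, of which Rpl29 alone is a subunit gene.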
